A study of Mus musculus with 4 samples.

Results

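Interferon-stimulated genes are the antiviral and regulatory genes that cells switch on after they sense an interferon. A list of 45 of them, chosen by gene symbol, was followed across 4 Affymetrix expression arrays from C57BL/6 mice. The choice was made with earlier results of these data known. Of the 45 genes, 43 had at least 1 probe set annotated to that gene alone, out of 18193 genes with such a probe set on the array. The study asked how the gut immune tissue and epithelium of germ-free (GF) mice respond to a single gut bacterium, Lactobacillus NK318.1. The GF groups carried no bacteria, and the colonized groups were GF mice that had received 100000000 NK318.1 bacteria 2 weeks before sampling. All mice lived in vinyl isolators, so every group was free of other microbes by design. From each kind of mouse, cells of the Peyer's patches (the lymphoid follicles of the small intestine, PP) and intestinal epithelial cells (IEC) were taken as pooled material, which gave 1 array for GF PP, NK318.1-colonized PP, GF IEC and NK318.1-colonized IEC. There were therefore no replicates, nothing could be tested, and each difference below is a difference between 2 arrays.

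The arrays had close median signals, from 22.97 to 23.32. Signal is the MAS5 intensity of a probe set on a linear scale. The leukocyte gene Ptprc (CD45) had a signal of 5152 in GF PP and 5235 in colonized PP, and the enterocyte gene Fabp1 had 6604 in GF IEC and 4666 in colonized IEC, so each tissue carried the marker its label calls for. Ptprc in IEC was 271 in GF mice and 23.1 in colonized mice. Xist, expressed from the inactive X chromosome of female cells, had a signal of 21.7 in GF PP and 46.7 in GF IEC, against 4586 in colonized PP and 4889 in colonized IEC. Signals of Uty, Kdm5d and Eif2s3y, all on the Y chromosome, were at or below 5.46 in both colonized arrays and between 38.1 and 300.1 in both GF arrays. In both tissues, the sex of the pooled mice and colonization therefore cannot be told apart. For β-actin, the 3′ over 5′ signal ratio (larger in degraded RNA) was 1.60 in GF PP, 1.74 in colonized PP, 2.73 in GF IEC and 4.10 in colonized IEC, and its part in the IEC values was not tested.

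Type I interferons act on nearly all cells, and type III interferons act mainly on epithelium, including that of the gut. Both receptors signal through Janus kinases to ISGF3, a complex of STAT proteins with IRF9, which binds the interferon-stimulated response element (ISRE) in the promoters of its target genes. Type II interferon (interferon-γ) acts through STAT dimers that bind another element, GAS, and many guanylate-binding proteins and immunity-related GTPases answer to it. A low interferon signal is present in healthy tissues and keeps many of these genes transcribed in the absence of infection.

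Promoter sequences were looked up for the listed genes in RefSeq (build GRCm38.p6), as windows from 250 bases before to 50 bases after each annotated start. The table held 35 of the 45 genes, in 42 windows; Dhx58, Mx1, Mx2, Oas2, Parp9, Parp14, Rtp4, Tor3a, Usp18 and Zbp1 were not among them. The ISRE core was searched as GAAA, any 2 bases and GAAA again, on both strands, with overlapping matches allowed. At least 1 such match stood in the windows of 19 of the 35 genes (54.3%), against 1079 of all 27025 genes in the table (3.99%). Counted by window, 20 of 42 (47.6%) held it, against 3.44% of all 32851 windows. The GAS core, TTCNNNGAA on both strands, was found for 9 of the 35 genes (25.7%) and 9.55% of all genes. These are matches of letters and not evidence of binding.

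The 6 stretches of 160 bases shown here end at the base before the start and are printed because they set the genes with the largest differences described below beside genes with smaller ones. Ifit3 (chr19:34583369-34583528, plus strand) and Ifit1 (chr19:34640729-34640888, plus strand) had the lowest colonized over GF ratios of the list in PP. Rsad2 (chr12:26456453-26456612, minus strand) and Cmpk2 (chr12:26469055-26469214, plus strand) lie next to each other and were lower in both tissues. Gbp2 (chr3:142620503-142620662, plus strand) and Gbp7 (chr3:142530176-142530335, plus strand) had PP ratios much closer to 0. Each is written 5′ to 3′ along the strand of its gene, with the ISRE core on either strand in capitals.
Ifit3: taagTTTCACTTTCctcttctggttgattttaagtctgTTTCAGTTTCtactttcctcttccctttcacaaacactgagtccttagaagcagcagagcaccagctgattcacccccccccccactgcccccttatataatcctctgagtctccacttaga
Ifit1: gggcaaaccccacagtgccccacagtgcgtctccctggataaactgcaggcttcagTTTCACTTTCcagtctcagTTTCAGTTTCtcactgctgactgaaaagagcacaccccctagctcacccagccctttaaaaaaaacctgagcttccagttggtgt
Rsad2: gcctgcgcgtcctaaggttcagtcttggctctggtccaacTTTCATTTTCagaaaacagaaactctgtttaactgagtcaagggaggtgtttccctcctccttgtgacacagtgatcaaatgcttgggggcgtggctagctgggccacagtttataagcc
Cmpk2: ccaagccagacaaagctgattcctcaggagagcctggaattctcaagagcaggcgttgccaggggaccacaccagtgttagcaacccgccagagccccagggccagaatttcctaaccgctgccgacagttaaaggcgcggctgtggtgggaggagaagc
Gbp2: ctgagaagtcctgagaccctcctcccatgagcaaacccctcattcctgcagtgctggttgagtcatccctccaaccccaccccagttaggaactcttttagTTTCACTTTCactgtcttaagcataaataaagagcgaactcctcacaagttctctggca
Gbp7: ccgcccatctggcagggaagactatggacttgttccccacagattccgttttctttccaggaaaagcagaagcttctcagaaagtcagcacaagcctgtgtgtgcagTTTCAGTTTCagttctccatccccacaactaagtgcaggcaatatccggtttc
Ifit3 had matches at bases −156 to −147 and −122 to −113 from the start, and Ifit1 at −104 to −95 and −85 to −76. Rsad2 had 1 match at −120 to −111, whereas the Cmpk2 window held no match of these letters. Gbp2 and Gbp7 had 1 match each, at −59 to −50 and −53 to −44. In these chosen windows, the letters alone therefore did not follow the size of the PP difference. Among listed genes in the table, 5 of the 12 at least 2-fold lower in colonized PP had an ISRE match (41.7%), as had 13 of the 21 under 2-fold (61.9%). For the GAS core these counts were 2 of 12 and 7 of 21. Dhx58, Mx1, Rtp4, Tor3a and Usp18, also at least 2-fold lower in colonized PP, had no window and are in none of these counts. The same holds for Mx2, Oas2, Parp9, Parp14 and Zbp1, which were under 2-fold.

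**Figure D1:**
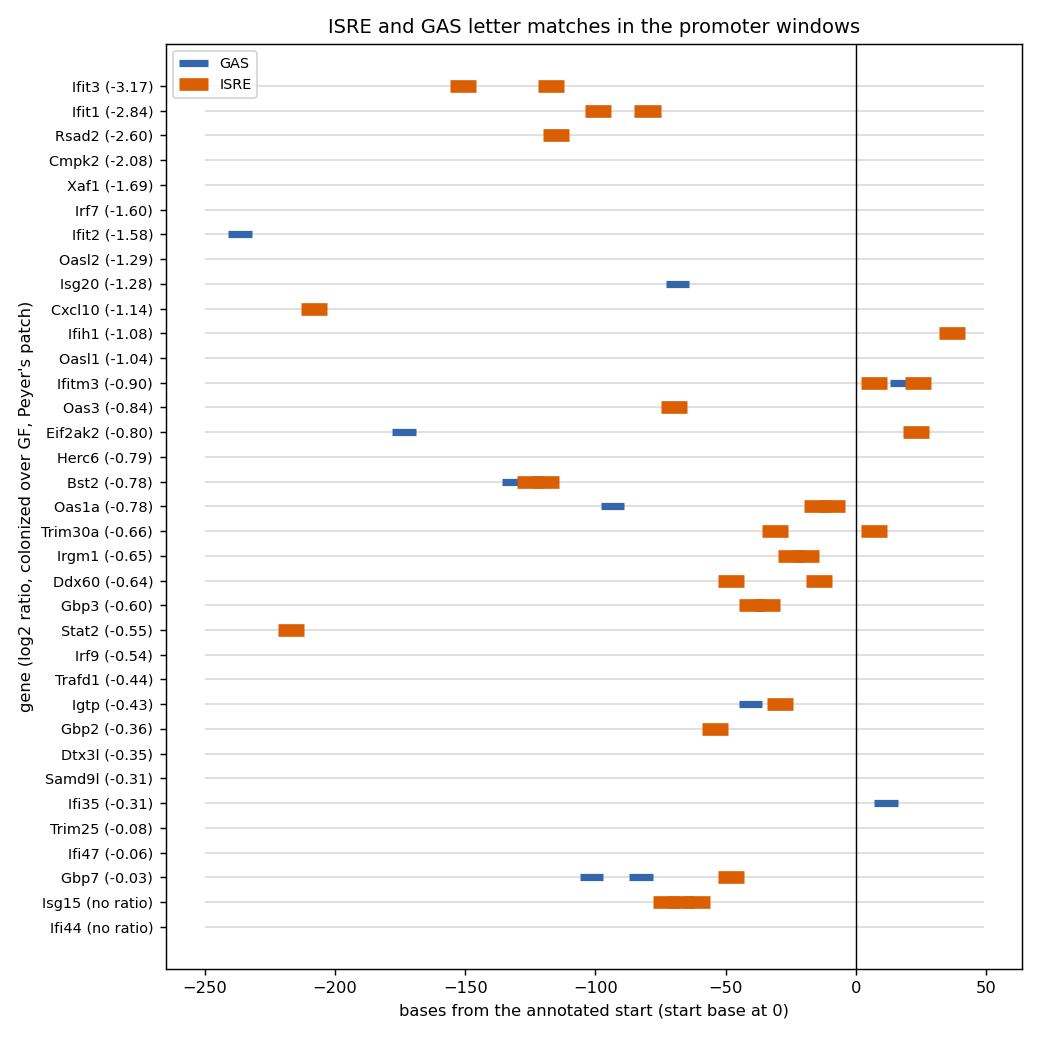
Each grey line is the promoter window of 1 listed gene in RefSeq, with the distance from the annotated start in bases on the horizontal axis; thick orange marks are ISRE core matches and thin blue marks GAS core matches, orange drawn over blue where they overlap, and all windows of a gene share its line. Genes run from the lowest log2 ratio in PP at the top (Ifit3, −3.17) to the highest (Gbp7, −0.03), followed by Isg15 and Ifi44 without a ratio, and ISRE matches occur along the whole order.

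In PP, the interferon-stimulated genes were lower in the NK318.1-colonized array than in the GF array throughout the list. The lowest were Ifit3, Ifit1, Rsad2 and Cmpk2. Ifit1 binds foreign RNA, Rsad2 (viperin) makes a chain-terminating nucleotide, and its neighbour Cmpk2 is a mitochondrial nucleotide kinase. All 43 measured genes had a log2 ratio of colonized over GF below 0, where 57.2% of all 12736 measured genes did. Signals below 15.5 were raised to that floor before the ratio was taken, genes with both arrays of a tissue under the floor were not counted there, and each gene was read from its brightest probe set. At least 2-fold lower were 17 of the 43, beside 0.573% of all measured genes (73), and 0 were at least 2-fold higher, beside 0.149% (19). The listed genes thus made up 17 of the 73 genes at or past this limit, 4 of the 10 lowest genes and 10 of the 20 lowest. Because the list was chosen with earlier results of these data known, these shares are not independent of that choice. Their median log2 ratio was −0.79, with quartiles at −1.33 and −0.55, while the median of all genes was −0.03. The central 95% of all genes ran from −0.60 to 0.41, and 29 of the 43 lay below it. A limit of 1.5-fold took in 31 of the 43 beside 2.74% of all measured genes, and a limit of 4-fold took in 4 beside 0.0628%. Since PP are mixtures of cells, fewer cells of a type that expresses these genes and less RNA per cell cannot be told apart.

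**Figure D2:**
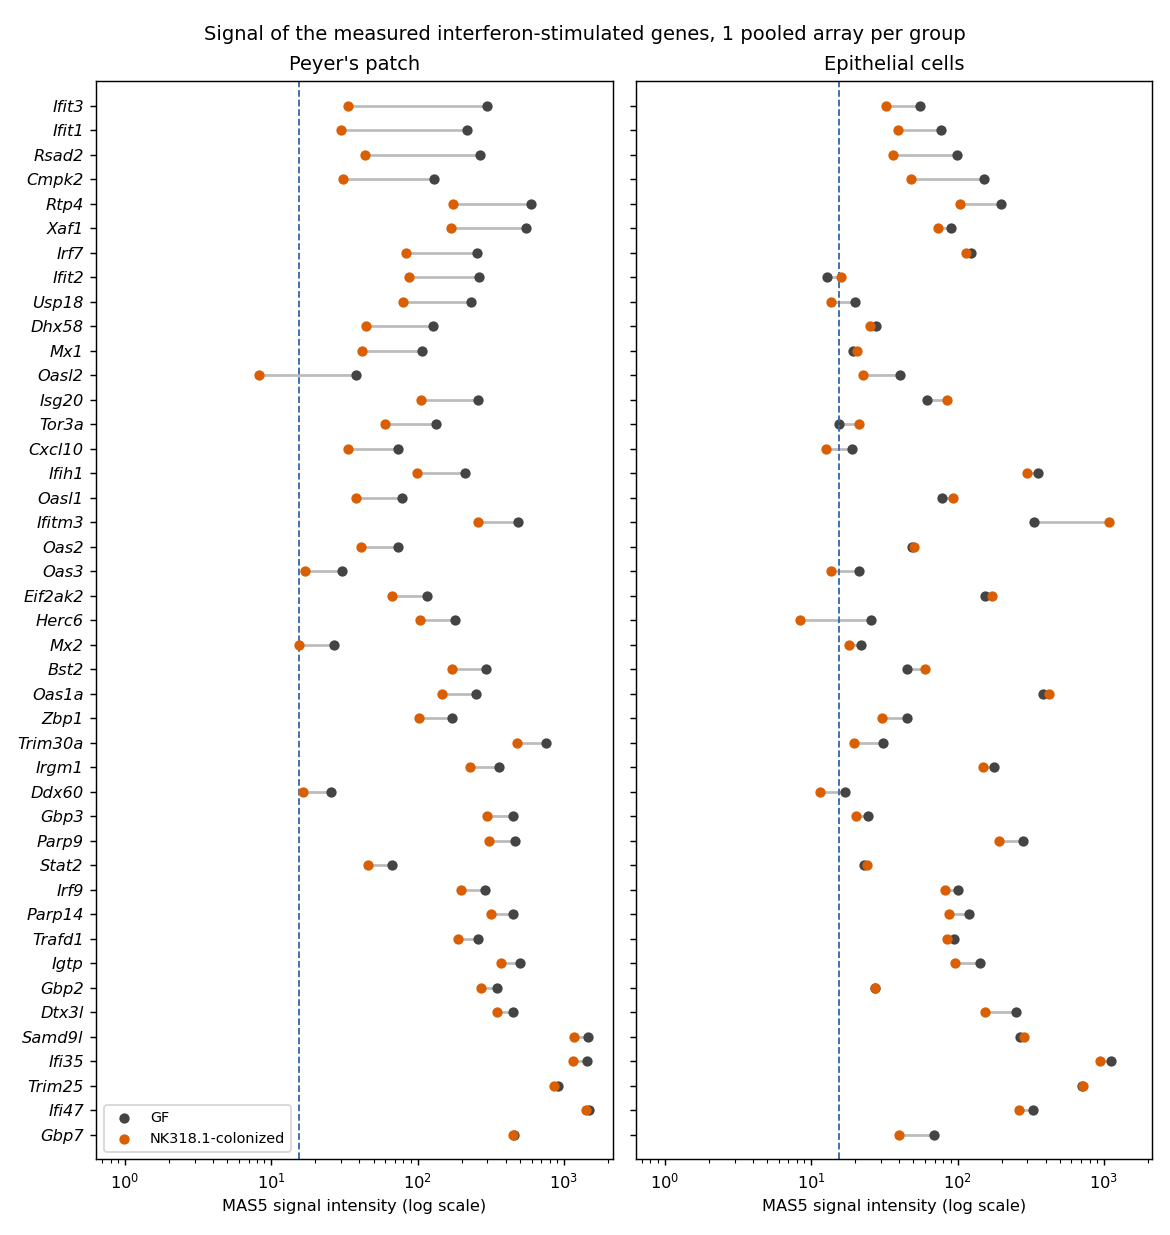
Signal (MAS5 intensity, log scale) of the 43 interferon-stimulated genes in PP (left) and IEC (right), grey for GF and orange for NK318.1-colonized, with 1 pooled array per point and the floor of 15.5 as a dashed line. The genes are ordered by their PP ratio: every orange point lies left of its grey point in PP, from Ifit3 (299.0 and 33.2) to Gbp7 (459 and 450), whereas in IEC the order of the points is mixed and Ifitm3 is higher after colonization.

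Ifit1 encodes a protein that binds viral RNA lacking the host's cap methylation and blocks its translation. Ifit3 had a signal of 299.0 in GF PP, 33.2 in colonized PP, 55.8 in GF IEC and 32.7 in colonized IEC, so that it was 8.99-fold lower in colonized PP, the largest difference of the list. Ifit1 had 216.7, 30.2, 77.5 and 39.1 in the same order and was 7.18-fold lower. The gap between GF and colonized mice was wide in PP, and in IEC it was narrower but ran the same way. Ifit2, the direct neighbour of Ifit3 on chromosome 19, had 262.25 and 87.5 in PP (log2 ratio −1.58), and 12.9 and 16.0 in IEC, on either side of the floor.

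Rsad2 and Cmpk2 also sit beside each other, on opposite strands of chromosome 12. Rsad2 had a signal of 265.3 in GF PP and 43.8 in colonized PP (6.06-fold lower), and 99.7 and 36.1 in IEC (log2 ratio −1.47). Cmpk2 had 130.3 and 30.8 in PP (4.23-fold lower), and 151.8 and 47.8 in IEC (log2 ratio −1.67). They were the only listed genes at least 2-fold lower in both tissues. A second measured probe set of Rsad2 had a colonized signal under the floor in both tissues and gave log2 ratios of −2.29 or lower in PP and −1.05 or lower in IEC. The other probe set of Cmpk2 was under the floor in both PP arrays and gave a bound of −0.15 or lower in IEC (−0.87 without the floor).

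The oligoadenylate synthetases make the messenger that activates RNase L, and the related Oasl1 represses translation of Irf7. Oasl2 had signals of 38.02 and 8.28 in GF and colonized PP, at least 2.45-fold lower, and Oasl1 had 78.1 and 37.99 (2.05-fold lower, just inside the 2-fold limit). Oas2 had 74.0 and 40.8 (1.81-fold lower) and stood just outside it. Oas1a (250.3 and 145.9, log2 ratio −0.78) and Oas3 (30.6 and 17.0, −0.84) differed by similar factors. Oasl1, Oas1a, Oas2 and Oas3 thus stood lower by close to 2-fold, whereas for Oasl2, whose colonized signal lay under the floor, the fold is only a lower bound and the log2 ratio without a floor was −2.20.

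Other effectors of this group act on RNA or nucleic acids in different ways. Isg20, an RNA exonuclease, had 256.8 in GF PP and 105.45 in colonized PP (2.44-fold lower). Eif2ak2, the kinase PKR that stops translation on double-stranded RNA, had 116.6 and 66.8 (log2 ratio −0.80; other probe sets −0.49 and −1.03 or lower). Zbp1, a sensor of Z-form nucleic acids, had 170.7 and 102.3 (−0.74). Samd9l, which restricts poxviruses, was the nearest to 0 of these effectors at 1451 and 1170 (−0.31). In all, 8 of the 14 RNA-binding and nucleotide effectors were past 2-fold, and their median log2 ratio was −1.16.

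The cytosolic RNA sensors feed back on the pathway, since they detect viral RNA and trigger interferon production. Dhx58 (LGP2) had a signal of 127.8 in GF PP, 44.5 in colonized PP, 27.6 in GF IEC and 25.2 in colonized IEC, 2.87-fold lower in colonized PP. Ifih1 (MDA5) had 210.1 and 99.3 in PP (2.12-fold lower) and 355.2 and 297.8 in IEC. Ddx60, a helicase that assists these sensors, had 25.6 and 16.4 in PP (log2 ratio −0.64), near the floor. The other 2 probe sets of Dhx58 lay under the floor in both PP arrays. The mean over its probe sets gave a log2 ratio of −0.01 or lower, a bound, since the colonized mean lay under the floor.

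Among the transcription factors, Irf7, which amplifies the type I interferon genes, had 252.7 in GF PP and 83.4 in colonized PP (3.03-fold lower). Its IEC signals were 123.3 and 114.8, almost level. The ISGF3 subunits Irf9 (289.1 and 198.3 in PP, log2 ratio −0.54) and Stat2 (66.9 and 45.7, −0.55) were lower by smaller factors. The inducible amplifier thus stood further apart between the PP arrays than these ISGF3 subunits.

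The genes of the ISG15 pathway, of ubiquitin ligases and of ADP-ribose transfer had smaller differences than the RNA effectors, with a median log2 ratio of −0.55 in PP. Usp18, which removes ISG15 from proteins and restrains the type I interferon receptor, was the only 1 of the 8 past 2-fold, at 231.3 in GF PP and 79.7 in colonized PP (2.90-fold lower). Herc6, the mouse ISG15 ligase, had 179.9 and 103.7 (−0.79). Trim30a had 751.2 and 474.7 (−0.66), and the adjacent genes Parp9, Dtx3l and Parp14 had log2 ratios of −0.59, −0.35 and −0.50. Trafd1, a feedback inhibitor of innate signalling, had −0.44, and Trim25, a ligase that activates RNA sensing, had 906.0 and 856.5 (−0.08; other probe sets −0.24 and 0.01). Isg15 itself had no probe set of its own: the 1 that names it is shared with Gm9706 and read 203.9 and 62.0 in PP (log2 ratio −1.72) and 66.2 and 35.1 in IEC (−0.91), so it was left out of all counts.

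Of the 8 GTPases, Mx1 alone was past 2-fold. Mx1 had 106.45 in GF PP and 41.4 in colonized PP (2.57-fold lower). For Mx2 the signals were 26.7 and 15.5, at the floor after colonization (log2 ratio −0.78 or lower). None of the 6 guanylate-binding and immunity-related GTPases was past 2-fold, and their median was −0.40. These proteins attack the vacuoles of intracellular pathogens. Irgm1 (359.0 and 228.7, −0.65) and Gbp3 (450.1 and 297.4, −0.60) had the lowest ratios among them, followed by Igtp (−0.43) and Gbp2 (−0.36). Ifi47 (1482 and 1418, −0.06) and Gbp7 (458.7 and 450.2, −0.03) had nearly equal signals in both PP arrays.

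The membrane restriction factors were lower by just under 2-fold. Ifitm3, which blocks viral fusion in endosomes, had 485.3 in GF PP and 259.7 in colonized PP (1.87-fold lower, just outside the limit). Bst2 (tetherin), which holds budding virions at the cell surface, had 295.2 and 171.9 (log2 ratio −0.78). Of the 5 remaining genes with a value, 4 were past 2-fold in PP. Rtp4, which restricts flaviviruses, had 591.3 and 175.0 (3.38-fold lower), and the pro-apoptotic Xaf1 had 547.7 and 170.3 (3.22-fold lower). Cxcl10, the chemokine that attracts T cells through CXCR3, had 73.9 and 33.5 (2.21-fold lower). Tor3a, a torsin ATPase, had 134.2 and 59.5 (2.26-fold lower), but its other probe sets gave smaller log2 ratios of −0.72 and −0.17. Ifi35 had the smallest difference of the 5, at 1436 and 1160 (−0.31). Ifi44 had no probe set in the annotation used here and so has no ratio.

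Where a gene had further measured probe sets, they mostly pointed the same way in PP. There were 20 of them in 15 genes, and 19 had the sign of the probe set used, with 1 of Trim25 as the exception. In IEC, 10 of 16 had the same sign, and the 6 others belonged to Dhx58, Eif2ak2, Gbp2, Parp14 and Trim25.

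Genes around the list were compared in the same PP arrays. Which genes stood in which list was also decided with earlier results of these data known. Of 57 other interferon-stimulated genes, 46 were measured, 3 were at least 2-fold lower and 0 higher, and their median log2 ratio was −0.35. The 3 were Lgals3bp (405.8 in GF and 152.1 in colonized PP, −1.42), Ifi27l2a (946.4 and 366.1, −1.37) and Rnf213 (1130 and 560.4, −1.01). The 15 targets of interferon-γ had a median of −0.20, with Ido1, which degrades tryptophan, the only 1 past 2-fold (38.7 and 13.0, log2 ratio −1.32 or lower) and Cxcl11 the highest (18.5 and 28.1, 0.61). The genes upstream of the response had medians near 0, −0.06 for receptors and proximal signalling. The 13 measured receptors and proximal signalling genes ranged from −0.28 (Ifnar2) to 0.05 (Socs1), and Ifnar1, the other chain of the type I receptor, had 147.0 and 144.1 (−0.03). The 17 measured genes of nucleic acid sensing had a median of −0.03, from −0.70 (Tlr7, the endosomal sensor of single-stranded RNA) to 0.31 (Mavs, the adaptor of the RNA helicases). Neither group held a gene past 2-fold, beside 0.573% of all measured genes at least 2-fold lower and 0.149% at least 2-fold higher. In groups of this size, a count of 0 lies near these shares. Of 12 interferon genes, 7 had a probe set, and only Ifna1 was above the floor in PP, at 18.4 in GF and 22.2 in colonized mice (0.27), so a level of interferon transcripts was mostly not detectable on these arrays.

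Cell type markers also differed between the PP arrays, with medians nearer 0 than the −0.79 of the listed interferon-stimulated genes. The macrophage and dendritic cell medians lay further from 0 than that of the other interferon-stimulated genes (−0.35). Macrophage markers had a median log2 ratio of −0.40, with 10 of 11 below 0, 0 past 2-fold and a summed signal of 6572 in GF and 5216 in colonized PP. Dendritic cell markers had −0.47, with 8 of 9 below 0, Flt3 alone past 2-fold (209.9 and 98.9, −1.09) and a summed signal of 4354 and 3019. For plasmacytoid dendritic cells, which make large amounts of type I interferon, the median was −0.09 and Siglech, their defining marker, had 79.1 and 66.5 (−0.25). Monocyte and neutrophil markers had −0.30, B cell markers −0.22 and markers of intraepithelial and cytotoxic lymphocytes −0.36 (Gzma −1.17), while T cell markers lay above 0 at 0.26 and Ptprc was level (0.02). The part of these markers in the interferon-stimulated genes was not tested.

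**Figure D3:**
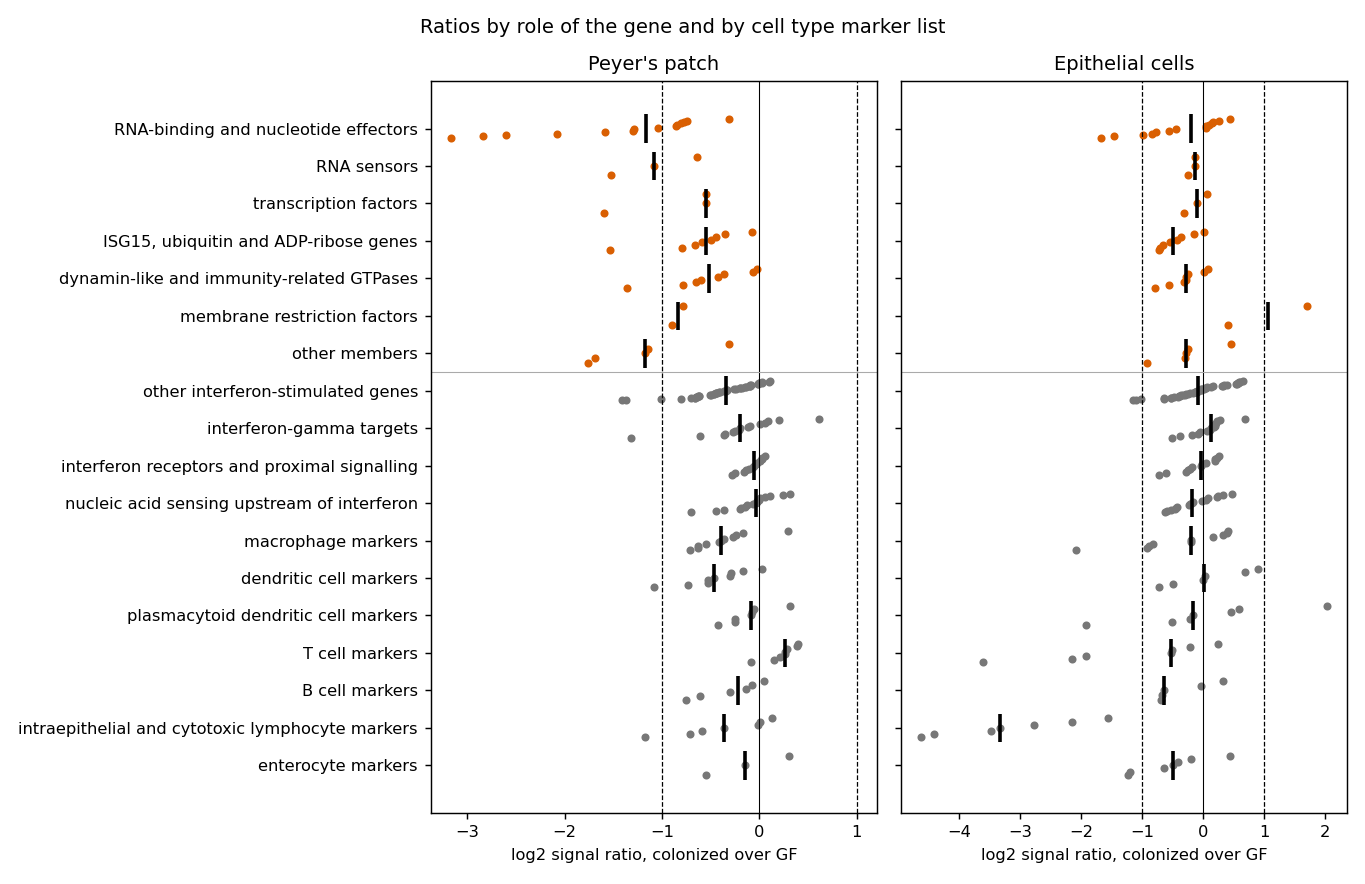
Log2 signal ratio of colonized over GF in PP (left) and IEC (right), 1 point per measured gene, with the median of each list as a black bar and the 2-fold limits as dashed lines; points of a list are spread vertically in order of their ratio. Orange points are the interferon-stimulated genes by role, with the lowest PP medians for RNA effectors (−1.16), RNA sensors (−1.08) and the remaining members (−1.17), and grey points are the other lists, among which the markers of intraepithelial and cytotoxic lymphocytes stand far below 0 in IEC (median −3.32).

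In IEC, the same genes showed smaller differences with both signs. Rsad2 and Cmpk2 were at least 2-fold lower after colonization and Ifitm3 was the only gene at least 2-fold higher. That is 2 of 43 measured genes lower beside 1.54% of all 13874 measured genes, and 1 higher beside 2.63%. Below 0 were 29 of the 43, against 47.6% of all genes, and the median log2 ratio was −0.27 where that of all genes was 0.02. The central 95% of all genes was wider than in PP, from −0.86 to 1.03, with 4 of the 43 below it and 1 above. At 1.5-fold, 10 of the 43 were lower, beside 6.8% of all measured genes.

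Ifitm3 had a signal of 333.6 in GF IEC and 1089 in colonized IEC, a log2 ratio of 1.71, the opposite direction to its PP signals. Bst2, the other membrane restriction factor, had 44.9 and 59.8 (0.41) and was also on the higher side. Ifit1 stood just short of the 2-fold limit on the lower side at 77.5 and 39.1 (−0.99), followed by Rtp4 (197.6 and 104.4, −0.92), Oasl2 (40.6 and 22.7, −0.84) and Gbp7 (68.9 and 39.8, −0.79). Gbp7, level in PP, was thus among the lower genes in IEC. The ISG15, ubiquitin and ADP-ribose genes had the lowest IEC median of any role with more than 3 genes, −0.49, with Herc6 (25.8 and 8.45, −0.73 or lower), Dtx3l (252.1 and 154.4, −0.71) and Trim30a (31.0 and 19.6, −0.66) lowest. Oas1a (383.6 and 421.6, 0.14), Eif2ak2 (154.6 and 172.2, 0.16), Isg20 (62.2 and 84.4, 0.44) and Samd9l (265.1 and 282.4, 0.09) were slightly above 0.

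Genes near the floor say little in IEC. The signals of Ifit2, Oas3, Ddx60, Usp18, Herc6, Cxcl10 and Tor3a were under the floor in 1 of the IEC arrays, so their IEC ratios are bounds. In the same arrays, 3 of 45 measured other interferon-stimulated genes passed 2-fold on the lower side, Ube2l6 (−1.15), Sp100 (−1.09) and Ms4a4c (−1.02), and the list's median was −0.09. Interferon-γ targets had a median of 0.14, none past 2-fold, with Psmb9, a subunit of the immunoproteasome, highest at 0.69. The receptors and proximal signalling genes had −0.03, with Ifnar2 lowest (−0.73), and nucleic acid sensing had −0.18.

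The IEC arrays differed in their content of some leukocyte transcripts, and not in the same way for each cell type. Each of the 7 markers of intraepithelial and cytotoxic lymphocytes was past 2-fold lower after colonization (median log2 ratio −3.32, summed signal 5356 in GF and 372 in colonized IEC), and Ptprc had −3.55. Of 7 measured T cell markers 3 were past 2-fold lower (Cd3d, Cd3g and Cd8a). Of 10 macrophage markers 1 was (Lyz2, −2.09), while their median was −0.20 and 6 were below 0. Dendritic cell markers had a median of 0.01, with 3 of 6 below 0 and 0 past 2-fold. Plasmacytoid dendritic cell markers had −0.17, with 4 of 7 below 0. Among them Ccr9 was past 2-fold lower (−1.93 or lower) and Spib past 2-fold higher (31.2 in GF and 127.5 in colonized IEC, 2.03). With such values of both signs, the list gives no reading of the content of these cells in IEC. Enterocyte markers had a median of −0.50, 2 of 7 past 2-fold lower, with a summed signal of 25489 and 18957. Over all measured genes, the gastrokine genes Gkn1 and Gkn2 had the highest IEC ratios of colonized over GF, 9.33 for Gkn2. The part of these markers and genes in the IEC ratios, that of Ifitm3 included, was not tested.

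The difference between the tissues was taken as the PP log2 ratio minus the IEC log2 ratio. Its median over the 43 genes was −0.51, against −0.06 over all 12260 genes measured in both tissues. For 38 of the 43 it was below 0, beside 55.7% of all genes, and for 14 it was −1 or lower, beside 4.12%. Since all 43 were below 0 in PP, the signs in both tissues together only repeat those in IEC. There, 29 were below 0 and 14 above, where 47.6% of all 13874 measured genes were below 0. Of the 17 genes past 2-fold in PP, 12 were below 0 in IEC and 5 above. The like count over all genes was not made. Ifitm3 had the widest gap (−2.61), followed by Ifit3 (−2.40), Ifit1 (−1.86) and Isg20 (−1.72).

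**Figure D4:**
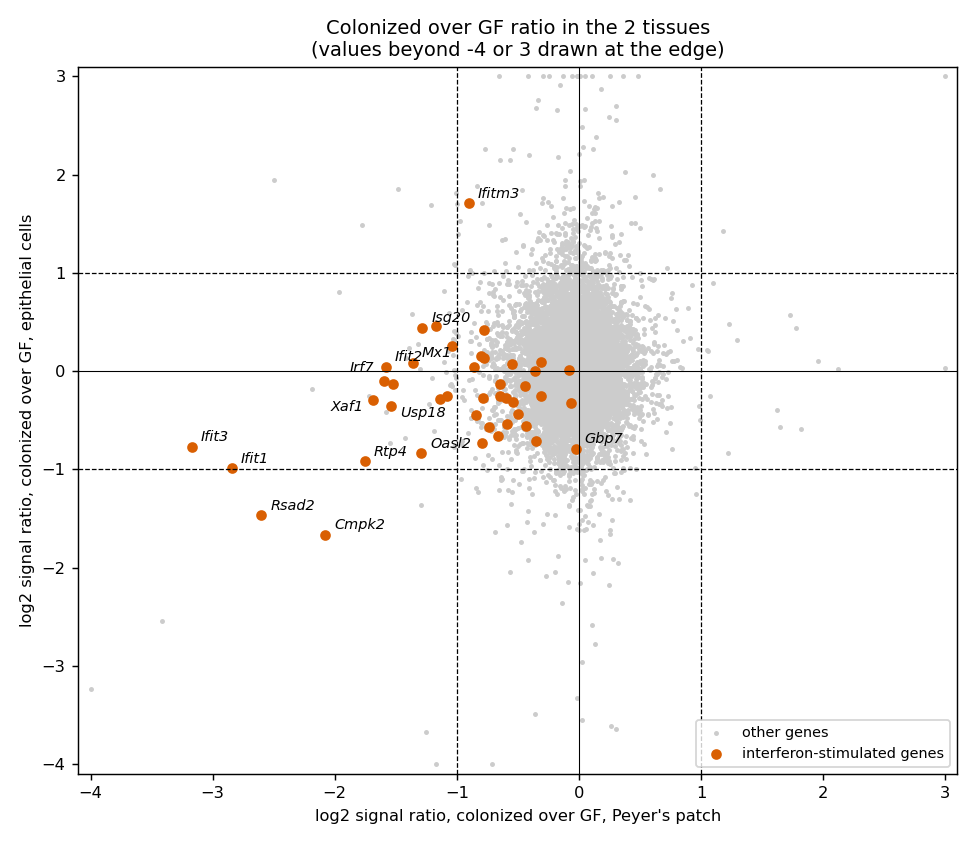
Log2 signal ratio of colonized over GF in PP (horizontal axis) against IEC (vertical axis), 1 point per gene measured in both tissues, orange for interferon-stimulated genes and grey for all others; dashed lines mark 2-fold and values beyond the axes are drawn at the edge. All orange points lie left of 0, Rsad2 and Cmpk2 alone among them pass 2-fold downwards on both axes, and Ifitm3 alone passes it upwards in IEC.

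The GF arrays also set the baseline of these genes in both tissues. In GF IEC, 28 of the 43 genes had a signal at least 2-fold lower than in GF PP, beside 18.5% of all 14036 genes measured in either, and 0 were at least 2-fold higher, beside 16%. A ratio of IEC over PP below 0 was found for 37 of the 43 (48.1% of all genes), with a median of −1.54 where all genes had 0.04. The widest gaps belonged to Trim30a (751.2 in GF PP and 31.0 in GF IEC, log2 ratio −4.60), Gbp3 (−4.20), Gbp2 (−3.68) and Usp18 (−3.54), together with Ifit2 (−4.08 or lower, since its GF IEC signal was under the floor). The highest of the 6 genes above 0 are given here with their ratios. Ifih1 (210.1 in GF PP and 355.2 in GF IEC, 0.76), Oas1a (0.62) and Eif2ak2 (0.41) had a higher signal in IEC, as had Cmpk2 (0.22). These values share the GF arrays with the colonization ratios above.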

How the data were processed

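RNA of 4 groups (GF PP, NK318.1-colonized PP, GF IEC and NK318.1-colonized IEC) was hybridized to Affymetrix 3′ expression arrays, 1 array of pooled material per group. For each probe set the authors deposited 1 MAS5 intensity on a linear scale. The MAS5 version, like its settings, was not given in the sources used here. Groups were taken from the sample labels. The intensity was used without further scaling. Of 45037 probe sets beside 64 controls, 9160 carry no gene and 932 several genes in the platform annotation and were left out, and the other 34945 stand for 18193 genes, each read from its probe set of highest mean log2 intensity. Symbols were updated through RefSeq gene identifiers. The 40th percentile of intensity was taken on each array, and the median of the 4 values, 15.5, served as the floor. On each array between 59.1% and 61.0% of probe sets lay above it. Ratios are log2 of colonized over GF within a tissue, counted at 2-fold, the limit in the study's methods. MAS5 intensities carry no read depth, and with 1 array per group their number limits the precision: no test or error could be given.

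The members, the other gene lists and the rules were chosen with earlier results of these data known. Every listed interferon-stimulated gene could be named, and of the other lists the genes past 2-fold, the 2 highest and 2 lowest in each tissue and the first marker of a cell type. The sex-linked genes were named too, and Ifnar1 falls outside the rule and was chosen after its values were seen. The alternatives changed the scaling (quantile normalization, median centring), the floor (none, or the 60th or 25th percentile), the probe sets (their mean per gene, or without the less specific ones) and the limit (1.5-fold, 4-fold). The procedure was tested on simulated data. Python 3.11.15, numpy 2.4.6, pandas 2.3.3 and matplotlib 3.10.9 were used.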

Additional observations from a re-analysis of the deposited data

Results flagged for a closer look

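For 6 interferon-stimulated genes, 1 tissue showed a difference of at least 2-fold after colonization while the other tissue pointed the opposite way. The share of all genes that meet this rule was not counted, so the 6 cannot be set against it. The values are the PP log2 ratio minus the IEC log2 ratio, and with 1 array per group the difference was not tested. It was −2.61 for Ifitm3, the only 1 of the 6 whose 2-fold difference lay in IEC. It was −1.72 for Isg20, −1.64 for Tor3a, −1.63 for Ifit2, −1.45 for Mx1 and −1.29 for Oasl1, all lower in PP. In IEC, Ifit2 and Tor3a had a GF signal under the floor, and the IEC ratios of Ifit2 and Mx1 were 0.04 and 0.09.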

How the results depend on the processing

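No paired analysis was possible because there was only 1 array per group. Of 64 summary values recomputed under 9 alternatives, 57 stayed within 1.5 times the main value or within 0.1 of it. The count of interferon-stimulated genes at least 2-fold lower in PP went from 17 to 11 without less specific probe sets, where 34 were measured, and the limit itself gave 31 at 1.5-fold and 4 at 4-fold. In IEC the 2 lower genes became 1 without less specific probe sets, 10 at 1.5-fold and 0 at 4-fold, and the 1 higher gene became 0 at 4-fold. Under quantile normalization, median centring, no floor or a lower one at the 25th percentile, 3 were lower in IEC. The median ranged from −0.80 to −0.76 in PP and from −0.30 to −0.26 in IEC, that of the tissue difference from −0.72 to −0.45 and that of GF IEC over GF PP from −1.54 to −1.03. All measured genes stayed below 0 in PP except Gbp7 under quantile normalization. Of 564 values of single genes, 11 crossed the 2-fold limit in either direction. In PP this concerned Oasl2 (−0.03 or lower with a floor at the 60th percentile) and Dhx58 (−0.01 or lower with the mean over probe sets). It also concerned Tor3a (−0.72 to −0.66), Oasl1 (−0.95 with quantile normalization) and Cxcl10 (−0.99 or lower with a floor at the 60th percentile). In IEC it concerned Ifit1 (−1.01 with median centring, −1.09 with quantile normalization). The other gene in IEC was Herc6 (−1.57 or lower with a floor at the 25th percentile, −1.61 without a floor). Values marked as or lower are bounds, because the colonized signal lay under the floor in use. Signals near the floor limit what the IEC values can show: with a floor at the 60th percentile, 40 genes were measured in PP and 29 in IEC.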
